A study of Danio rerio with 21 samples.

Results

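Fgf and Pdgf signalling genes were followed through the regeneration of the zebrafish heart. The set held 10 genes, namely the Fgf ligand fgf17, the Fgf homologous factor fgf11a, the Fgf receptors fgfr1a, fgfr2 and fgfr4, the Pdgf ligands pdgfaa, pdgfab and pdgfbb, and the Pdgf receptors pdgfra and pdgfrb. Each was found by its symbol in the annotation of the array, among 19260 genes that are the only symbol of at least 1 feature (a set of probes with a single value per array). Of the 10 genes, 9 had a single feature and pdgfra had 2, of which the brighter was used. For pdgfra the annotation pairs the symbol with an Entrez identifier that the RefSeq gene table used here does not list, so its identity rests on the symbol alone.

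RNA was measured in 21 pools of 5 heart ventricles from adult TU zebrafish between 10 and 11 months old, each pool on its own Affymetrix Zebrafish Gene 1.0 ST array. Besides uninjured control fish, ventricles were taken at 4 hours after cryoinjury (hpi), the freezing of part of the ventricle, and at 1, 3, 7, 14 or 90 days after it (dpi). Each of these 7 groups had 3 arrays from separate pools of fish. The labels and methods name the controls uninjured, while a materials list of the study calls its control group sham, so whether the controls had their chest opened is not settled by the sources used here.

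Fgf ligands are secreted proteins that dimerise receptor tyrosine kinases at the cell surface and start the Ras and MAP kinase cascade, which in turn induces its own inhibitors of the Sprouty and Dusp families. Pdgf ligands act in the same way on Pdgfra, which is typical of fibroblasts and other mesenchymal cells, and on Pdgfrb, which is typical of the mural cells that wrap blood vessels. In the zebrafish heart both pathways have been tied to the epicardium, the outer cell layer of the heart, and to the growth of coronary vessels after injury.

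The tissue label was borne out, as far as heart muscle goes, by contractile genes. A further marker planned for the ventricle, vmhc, had no feature under its symbol, so the ventricle itself was not checked. The log2 signals of myl7 (11.7 to 12.1), cmlc1 (12.1 to 12.6) and tnnt2a (12.6 to 13.0) were high on every array, where the median of an array lay between 5.14 and 5.20. Arrays of the same group correlated at an r of 0.952 to 0.977 over the tested features. Between groups r ran from 0.844 to 0.969, so the ranges overlapped. Whole ventricles were profiled, so fewer cells of a type and less RNA per cell cannot be told apart in any value below.

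All changes below are differences of mean log2 signal with their standard error (SE) from a single limma fit of the 7 groups, 3 arrays each. A change was called at a Benjamini-Hochberg adjusted p under 0.05 over the 35783 features with a log2 signal above 6 on at least 1 array. This filter kept 8 of the 10 genes, of which fgf11a passed through its 3 control arrays alone and fgfr1a through a single array at 3 dpi, while pdgfaa and pdgfab did not pass. The 6 comparisons with control share the same 3 control arrays, and levels are compared within a gene, not between genes, because probes differ in brightness.

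**Figure D1:**
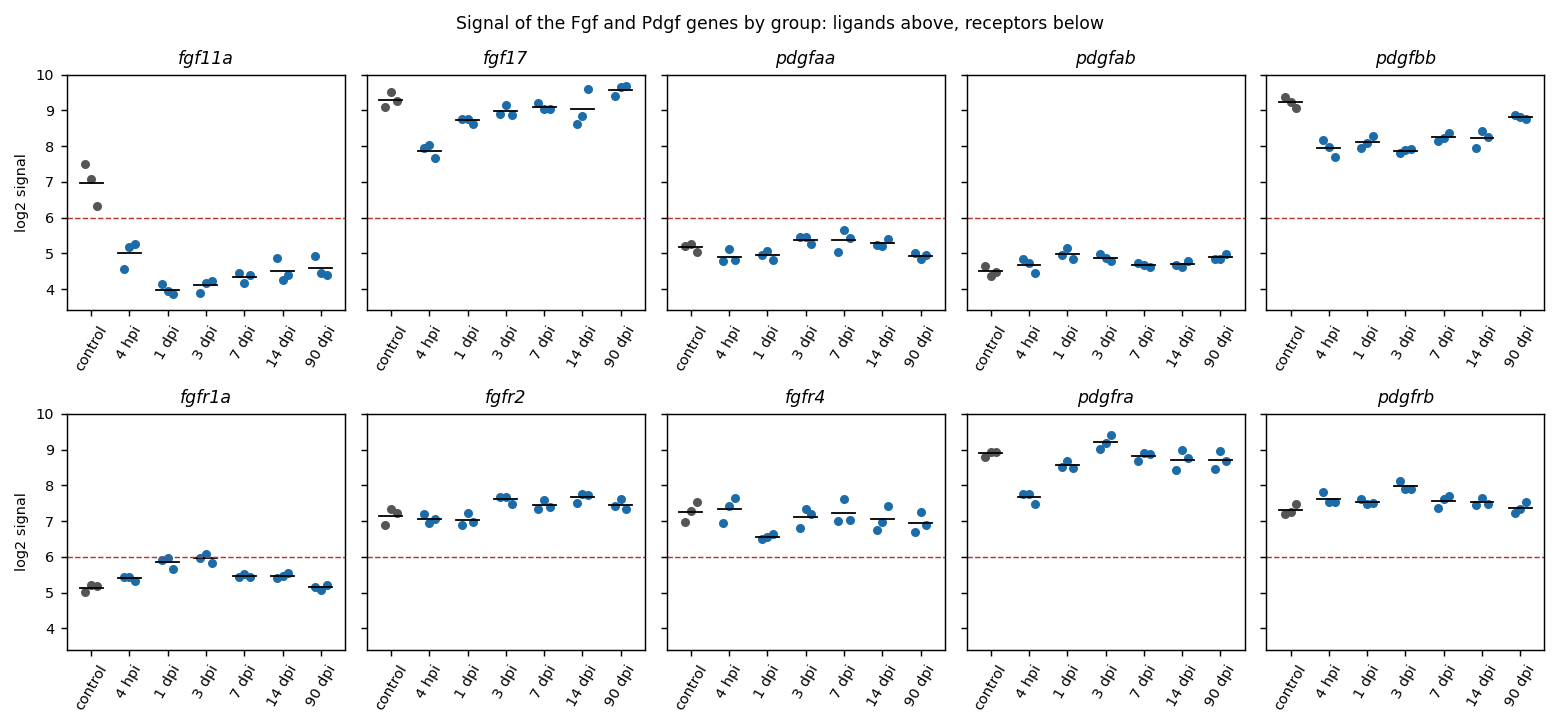
Log2 signal of each of the 10 genes on each of the 21 arrays, by group, with grey points for control, blue points for injured hearts and a black bar for the group mean of 3 arrays. The dashed line marks the signal filter of 6, under which pdgfaa and pdgfab stayed on all arrays and fgf11a on all 18 arrays after injury.

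Among the ligands and the homologous factor, the 3 tested genes fell soon after injury and differed in how long they stayed low. fgf11a fell at every time, with changes of -2.98 to -1.96 on the log2 scale, pdgfbb fell by 0.98 to 1.35 on the log2 scale from 4 hpi to 14 dpi, and fgf17 fell at 4 hpi and 1 dpi. The receptors moved less and in both directions. pdgfra fell at 4 hpi alone, fgfr4 at 1 dpi alone, fgfr1a rose from 1 to 14 dpi, fgfr2 rose at 3 and 14 dpi, and pdgfrb rose at 4 hpi and 3 dpi. The 4 hpi rise of pdgfrb was just past the threshold, and several of these receptor calls were lost without single arrays, as given below.

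fgf11a encodes an Fgf homologous factor, a relative of the Fgf ligands which in mammals stays inside the cell and binds voltage-gated sodium channels rather than activating Fgf receptors in the usual way. Its log2 signal in the 3 control arrays was 7.49, 7.07 and 6.32. At 4 hpi it was 4.56, 5.18 and 5.26. At 1 dpi it was 4.14, 3.94 and 3.87. All 3 control arrays lay above every injured array, with the lowest signals at 1 dpi.

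The later arrays of fgf11a stayed at that low level. They gave 3.90, 4.16 and 4.24 at 3 dpi, 4.45, 4.16 and 4.38 at 7 dpi, 4.88, 4.26 and 4.40 at 14 dpi, while the 90 dpi arrays gave 4.92, 4.44 and 4.39. At 90 dpi fgf11a was the single member called against control, and none of its 3 arrays reached the control range. Of all tested features, 2.9% likewise had their 3 control arrays above the other 18.

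The change of fgf11a against control was -1.96 ± 0.25 at 4 hpi (adjusted p = 1.26e-05, limma). At 1 dpi it was -2.98 ± 0.25 (adjusted p = 9.26e-08). It was -2.86 at 3 dpi, -2.63 at 7 dpi, -2.44 at 14 dpi and -2.37 at 90 dpi. From 4 hpi to 1 dpi the signal fell further, by 1.02 on the log2 scale (adjusted p = 0.00438), and no later step was called. From 1 dpi on, every array of fgf11a lay below the median signal of an array, and the gene passed the filter only through control, where it was high. No detection call was used here, so whether fgf11a was above background after injury was not tested, and these are differences of signal, not of RNA.

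fgf17 encodes a secreted ligand of the Fgf8 subfamily, which signals through Fgf receptors. Its log2 signal was 9.10, 9.50 and 9.27 in control hearts and 7.93, 8.02 and 7.66 at 4 hpi. It then gave 8.76, 8.76 and 8.63 at 1 dpi, 8.91, 9.16 and 8.88 at 3 dpi, with 9.21, 9.03 and 9.04 on the 7 dpi arrays. The 4 hpi arrays were the lowest of the series for this gene, and by 3 dpi the arrays overlapped the control range.

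fgf17 gave 8.61, 8.85 and 9.61 at 14 dpi, while the 90 dpi arrays gave 9.39, 9.65 and 9.67. The 14 dpi arrays had the widest spread (SD 0.52), and replicate 3 was the high array. fgf17 fell by 1.42 ± 0.19 on the log2 scale at 4 hpi (2.67-fold, adjusted p = 2.08e-05, limma) and by 0.57 at 1 dpi (adjusted p = 0.0253). The rise from 4 hpi to 1 dpi was 0.84 (adjusted p = 0.00232). Later changes from control ran from -0.31 at 3 dpi to 0.28 at 90 dpi and were not called. The 1 dpi call was lost without control replicate 2, control replicate 3 or 1 dpi replicate 3, where the change ranged from -0.67 to -0.47 over all left-out arrays. Without 14 dpi replicate 3 the 14 dpi change was -0.56 and was called (adjusted p = 0.029).

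pdgfbb encodes a B-chain Pdgf ligand, which in mammals is made by endothelial cells, platelets and macrophages and binds both Pdgf receptors. The arrays read 9.37, 9.23 and 9.05 in control hearts, 8.18, 7.98 and 7.69 at 4 hpi and 7.95, 8.08 and 8.28 at 1 dpi. At 3 dpi it was 7.80, 7.89 and 7.92, and at 7 dpi it was 8.14, 8.22 and 8.36. It gave 7.96, 8.42 and 8.26 at 14 dpi, while the 90 dpi arrays gave 8.88, 8.81 and 8.75. The 15 arrays from 4 hpi to 14 dpi all lay below the control and 90 dpi arrays, and the 90 dpi arrays lay between them and control.

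pdgfbb fell at 4 hpi (-1.27 ± 0.14, adjusted p = 2.84e-06, limma), 1 dpi (-1.11, adjusted p = 7.72e-06), 3 dpi (-1.35, adjusted p = 9.99e-07), 7 dpi (-0.98, adjusted p = 0.000117) and 14 dpi (-1.0, adjusted p = 0.000227). These are falls of 1.97-fold to 2.54-fold. At 90 dpi the difference from control was -0.41 (95% interval -0.70 to -0.11, adjusted p = 0.0527) and missed the threshold. All 3 arrays lay below control, as they did for 14.7% of all tested features. The difference was called with centred arrays, with a filter of 7 and with trend and robust variances. It was also called without 4 hpi replicate 1 or 3 or 14 dpi replicate 1 or 2 (adjusted p from 0.0374 to 0.16 over left-out arrays). The step from 14 to 90 dpi was a rise of 0.60 (adjusted p = 0.0142), which was lost without 14 dpi replicate 1.

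The A-chain ligands pdgfaa and pdgfab, duplicate genes of mammalian PDGFA whose product acts mainly through Pdgfra, were near or below the median signal of an array. The log2 signal of pdgfaa ran from 4.79 to 5.64. By group, pdgfaa gave 5.21, 5.27 and 5.05 in control, 4.79, 5.11 and 4.82 at 4 hpi, 4.96, 5.08 and 4.80 at 1 dpi, 5.45, 5.44 and 5.25 at 3 dpi, 5.03, 5.64 and 5.42 at 7 dpi, then 5.23, 5.20 and 5.40 at 14 dpi, while the 90 dpi arrays gave 5.00, 4.83 and 4.96. In a fit without the filter no comparison of pdgfaa was called. The largest difference between neighbouring times was 0.43 from 1 to 3 dpi, where the arrays did not overlap (adjusted p = 0.133, limma). In this step 12.8% of all tested features were likewise higher without overlap.

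pdgfab gave 4.64, 4.36 and 4.47 in control, 4.84, 4.72 and 4.46 at 4 hpi, 4.95, 5.14 and 4.83 at 1 dpi, 4.97, 4.88 and 4.78 at 3 dpi, 4.72, 4.67 and 4.63 at 7 dpi, 4.68, 4.61 and 4.78 at 14 dpi, while the 90 dpi arrays gave 4.84, 4.83 and 4.99. Its control arrays were the lowest as a group. Without the filter, pdgfab was higher than control at 1 dpi by 0.48 ± 0.11 (adjusted p = 0.00308, limma), at 3 dpi by 0.39 (adjusted p = 0.0149) and at 90 dpi by 0.39 (adjusted p = 0.0297). All of its arrays lay under the filter, so these differences rest on signals that the filter treats as unmeasured.

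**Figure D2:**
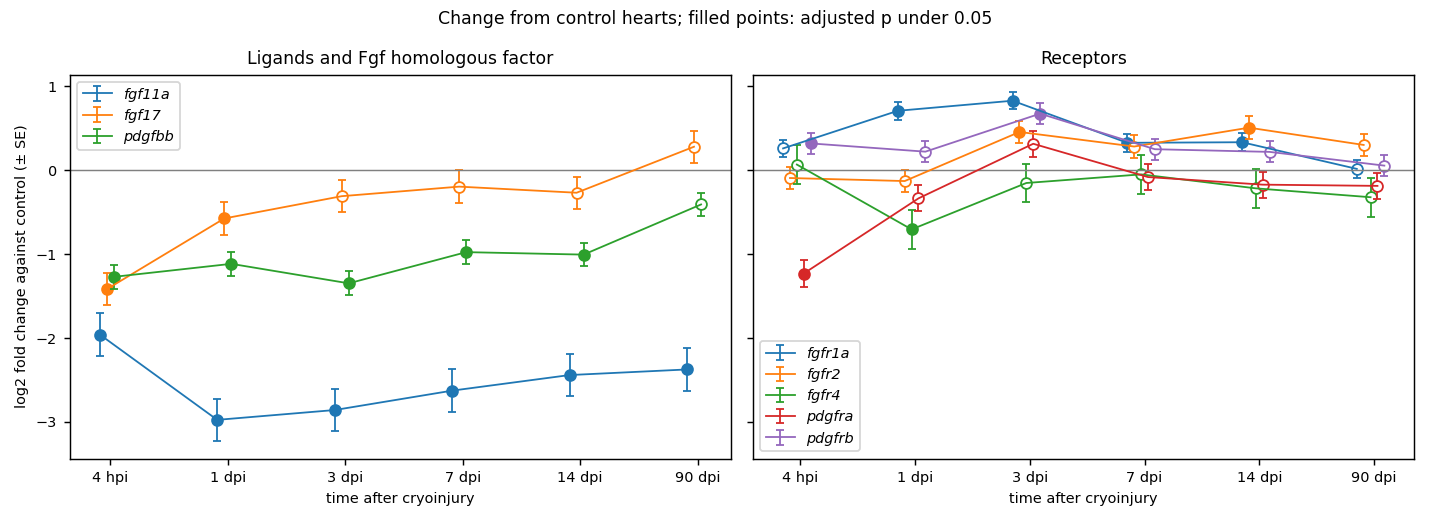
Log2 fold change against control (y axis, error bars ± SE of the limma fit, 3 arrays per group) at each time after cryoinjury for the 8 tested genes, ligands and homologous factor on the left and receptors on the right, with filled points where the adjusted p was under 0.05. fgf11a stays more than 1.9 below control at all 6 times, pdgfbb returns toward control only at 90 dpi, and fgfr1a and pdgfrb peak at 3 dpi.

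fgfr1a encodes an Fgf receptor tyrosine kinase, a duplicate of mammalian FGFR1. Its signal was 5.02, 5.20 and 5.18 in control hearts, 5.43, 5.43 and 5.32 at 4 hpi, 5.91, 5.97 and 5.65 at 1 dpi and 5.98, 6.08 and 5.84 at 3 dpi. It gave 5.44, 5.52 and 5.42 at 7 dpi, 5.40, 5.47 and 5.54 at 14 dpi, while the 90 dpi arrays gave 5.16, 5.07 and 5.22. The 1 and 3 dpi arrays were the highest, all 15 arrays from 4 hpi to 14 dpi lay above the control and 90 dpi arrays, and the 90 dpi arrays were back in the control range.

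fgfr1a rose by 0.71 ± 0.10 at 1 dpi (adjusted p = 3.66e-05, limma) and by 0.83 at 3 dpi (adjusted p = 7.53e-06). Its control arrays lay near the median signal of an array and it passed the filter on 1 array, at 3 dpi where it was highest, so these too are differences of dim signals. It was 0.26 above control at 4 hpi (adjusted p = 0.0559). It rose from 4 hpi to 1 dpi by 0.45 (adjusted p = 0.00264) and fell by 0.50 from 3 to 7 dpi (adjusted p = 0.00753). The smaller rises at 7 dpi (0.33, adjusted p = 0.0307) and 14 dpi (0.34, adjusted p = 0.0399) were lost when arrays were centred on their median (0.23 and 0.22). The 7 dpi rise was also lost without control replicate 1 or 3 or any 7 dpi array (adjusted p up to 0.115), and the 14 dpi rise without any control or 14 dpi array or 7 dpi replicate 1 (adjusted p up to 0.142). Without 1 dpi replicate 3 the 4 hpi change was called (adjusted p = 0.0408).

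fgfr2 encodes a further Fgf receptor. On the log2 scale its arrays gave 6.90, 7.35 and 7.22 in control hearts, 7.20, 6.94 and 7.05 at 4 hpi and 6.89, 7.21 and 6.98 at 1 dpi. At 3 dpi it was 7.68, 7.68 and 7.47, at 7 dpi 7.34, 7.60 and 7.38, at 14 dpi 7.50, 7.77 and 7.72, and the 90 dpi arrays gave 7.42, 7.62 and 7.34. Only the 3 and 14 dpi arrays lay wholly above control, where replicate 1 was the low array. The same held for 27.7% of all tested features at 3 dpi and 20.7% at 14 dpi.

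fgfr2 rose at 3 dpi (0.46 ± 0.14, adjusted p = 0.0141, limma) and 14 dpi (0.51, adjusted p = 0.019), and the step from 1 to 3 dpi was 0.59 (adjusted p = 0.0177). Without control replicate 1 both rises lost their call (0.33 and 0.38, adjusted p = 0.0853 and 0.0972), and the 3 dpi rise did so with centred arrays (0.32). The 3 dpi rise was also lost without 3 dpi replicate 1, the 14 dpi rise without 14 dpi replicate 2 or 3, and the step without 1 dpi replicate 1 or 3 or 3 dpi replicate 1 or 2.

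fgfr4 encodes an Fgf receptor which in mammals is the main partner of the endocrine ligand FGF19. The arrays gave 6.97, 7.28 and 7.54 in control hearts, 6.93, 7.43 and 7.63 at 4 hpi, 6.50, 6.55 and 6.63 at 1 dpi and 6.80, 7.35 and 7.19 at 3 dpi. It gave 7.00, 7.63 and 7.02 at 7 dpi, 6.75, 6.97 and 7.43 at 14 dpi, while the 90 dpi arrays gave 6.69, 7.25 and 6.89. The 1 dpi arrays were the lowest and the tightest (SD 0.07), while the other groups had an SD of 0.28 to 0.36 and overlapped control.

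fgfr4 fell by 0.70 ± 0.23 at 1 dpi (1.63-fold, adjusted p = 0.0221, limma) and was 0.77 lower than at 4 hpi (adjusted p = 0.0144). The 1 dpi fall was lost without control replicate 2 or 3 or without 1 dpi replicate 1 or 2, and the step without 4 hpi replicate 3 (adjusted p up to 0.099 and 0.0751). A test for any difference among the 7 groups did not call fgfr4 (adjusted p = 0.0836), but did so with quantile normalization, with centred arrays and with the replicate number as a block. Replicate 1 was its lowest array in all 7 groups.

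pdgfra encodes the alpha Pdgf receptor. Log2 signals were 8.79, 8.94 and 8.94 in control hearts, 7.76, 7.76 and 7.47 at 4 hpi, 8.51, 8.69 and 8.48 at 1 dpi and 9.03, 9.19 and 9.42 at 3 dpi. It gave 8.67, 8.91 and 8.86 at 7 dpi, 8.42, 8.98 and 8.76 at 14 dpi, while the 90 dpi arrays gave 8.47, 8.96 and 8.69. The 4 hpi arrays lay below, and the 3 dpi arrays above, all other arrays of the gene.

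pdgfra fell by 1.23 ± 0.16 at 4 hpi (2.35-fold, adjusted p = 1.02e-05, limma), rose by 0.90 from 4 hpi to 1 dpi (adjusted p = 0.000213) and by a further 0.65 from 1 to 3 dpi (adjusted p = 0.0207). This last step was lost without 1 dpi replicate 1 or 3 or 3 dpi replicate 2 or 3. Against control, 3 dpi was 0.32 higher (adjusted p = 0.125) and 1 dpi 0.33 lower (adjusted p = 0.1), which was called only when arrays were centred on their median (-0.52). The other feature of pdgfra followed the same course, with -1.18 at 4 hpi (adjusted p = 0.000218), a step of 0.85 from 1 to 3 dpi (adjusted p = 0.022) and a called rise of 0.54 at 3 dpi (adjusted p = 0.0481).

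pdgfrb encodes the beta Pdgf receptor. The 21 arrays gave 7.19, 7.26 and 7.47 in control hearts, 7.82, 7.54 and 7.52 at 4 hpi, 7.61, 7.47 and 7.50 at 1 dpi and 8.13, 7.91 and 7.91 at 3 dpi. It gave 7.36, 7.62 and 7.69 at 7 dpi, 7.46, 7.63 and 7.49 at 14 dpi, while the 90 dpi arrays gave 7.24, 7.33 and 7.52. The 3 dpi arrays were the highest of the series for this gene, and the arrays of 7 dpi and later overlapped control.

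pdgfrb rose by 0.68 ± 0.12 at 3 dpi (adjusted p = 0.000363, limma), a call that held without any single array. The rise of 0.32 at 4 hpi (adjusted p = 0.0494) was just past the threshold and was lost in 15 of 21 fits without a single array, and held only without control replicate 3, 4 hpi replicate 3, 3 dpi replicate 1, 7 dpi replicate 1 or 90 dpi replicate 1 or 3. The steps into and out of 3 dpi, 0.45 from 1 dpi (adjusted p = 0.0491) and -0.42 to 7 dpi (adjusted p = 0.0477), were each lost in 16 of 21 such fits. Both held without control replicate 3, 4 hpi replicate 1 or 90 dpi replicate 1 or 3, the first also without 7 dpi replicate 1 and the second without 4 hpi replicate 3. With the replicate number as a block, the 4 hpi rise and both steps were lost as well. The 4 hpi rise was also lost with quantile normalization (0.20, adjusted p = 0.236), with centred arrays (0.19, adjusted p = 0.246), without the filter, with trend and robust variances and with only the 6 arrays compared.

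Read against all features, many genes moved in these hearts, so the counts above need their background. At 4 hpi 1 of 8 tested members rose and 4 fell, where 21.3% of all tested features rose and 17.5% fell. At 1 dpi 1 rose and 4 fell, against 22% and 16.5%. At 3 dpi 3 rose and 2 fell, against 20.7% and 14.9%. At 4 hpi and 1 dpi falls outnumbered rises among the members while rises outnumbered falls among all features, a balance of the array that turned with the scaling. Of all calls 54.9%, 57.1% and 58.2% were rises at 4 hpi, 1 and 3 dpi as deposited, 44.3%, 45.6% and 48.2% after quantile normalization and 40.7%, 37.2% and 41.8% with arrays centred on their median.

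At 7 dpi 1 member rose and 2 fell, against 14.5% and 8.02% of all features. At 14 dpi 2 rose and 2 fell, against 9.39% and 4.57%. At 90 dpi 0 rose and 1 fell, against 11.2% and 7.68%, and at an unadjusted p under 0.05 limma gave 1 rise (fgfr2) and 2 falls (fgf11a, pdgfbb). From 7 to 90 dpi the share of rises among all calls was 64.4%, 67.3% and 59.4% as deposited, 56.6%, 55.6% and 55.1% after quantile normalization and 46.4%, 42.3% and 48.6% with centred arrays. With 8 members, each of these shares moves by a large step with a single gene. The median change of the 8 members was -0.66 at 4 hpi, where that of all features was 0.05, -0.45 at 1 dpi (0.05), 0.08 at 3 dpi (0.02), -0.06 at 7 dpi (0.02), -0.19 at 14 dpi (0.06) and -0.08 at 90 dpi (0.01). All these counts and medians include fgf11a, which the filter kept only through control, so its falls, the one at 90 dpi among them, were favoured by the filter. They also include fgfr1a, kept through 1 array at 3 dpi, where it was highest. The counts and medians are therefore a description only.

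Of 11 calls between neighbouring times, 8 lay in the steps up to 3 dpi, where most of such calls over all features lay too. From 4 hpi to 1 dpi 3 members rose (fgf17, fgfr1a, pdgfra) and 2 fell (fgf11a, fgfr4), against 19.4% and 15% of all features. From 1 to 3 dpi 3 rose (fgfr2, pdgfra, pdgfrb) and 0 fell, against 2.72% and 1.27%. From 3 to 7 dpi 0 rose and 2 fell (fgfr1a, pdgfrb), against 2.11% and 4.86%. The filter kept fgfr1a only through 3 dpi, so its fall in this step was favoured by the filter. From 7 to 14 dpi 0 rose and 0 fell, against 0.813% and 1.57%, and from 14 to 90 dpi 1 rose (pdgfbb) and 0 fell, against 4.29% and 7.03%. Where 0 was called, an unadjusted p under 0.05 in limma gave 0 falls from 1 to 3 dpi, 1 rise from 3 to 7 dpi (pdgfbb), 0 rises and 0 falls from 7 to 14 dpi, and 1 fall from 14 to 90 dpi (fgfr1a). In that last step rises were 37.9% of all calls as deposited, 48.8% after quantile normalization and 54.1% with centred arrays.

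The study contrasts injured hearts (4 hpi to 14 dpi, 15 arrays) with healthier hearts (control and 90 dpi, 6 arrays). In this contrast fgfr1a (0.48 ± 0.06, adjusted p = 7.73e-06, limma) and pdgfrb (0.31 ± 0.07, adjusted p = 0.00247) were higher in injured hearts, 2 of 8 members against 24.7% of all features. fgf11a (-1.38 ± 0.15, adjusted p = 1.41e-06), fgf17 (-0.69 ± 0.11, adjusted p = 0.000102) and pdgfbb (-0.94 ± 0.08, adjusted p = 1.9e-07) were lower, 3 of 8 against 17.6%. Of these members, the filter kept fgf11a only through control and fgfr1a only through 3 dpi, where each was high. Their calls in this contrast were thus favoured by the filter. pdgfra (-0.21, adjusted p = 0.0807) was not called, but was with quantile normalization (-0.25), with centred arrays (-0.32, adjusted p = 0.0126) and with the replicate number as a block. Of the calls over all features 58.3% were rises as deposited, 47.1% after quantile normalization and 40.2% with centred arrays. fgfr1a and pdgfbb were the members whose injured and healthier arrays did not overlap, which held for 1.41% of all tested features in the higher and 1.13% in the lower direction. The contrast averages over times that differ: fgf11a was low at 90 dpi too, and fgf17 was low mainly at 4 hpi. Over the whole series, 7 of 8 members differed among the 7 groups, against 65.2% of all features, and the remaining member was fgfr4, which was called too under the 3 alternatives named above.

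Whether related genes changed unequally was asked from the difference of their log2 signals within an array, between injured and healthier hearts. An exact two-sided permutation test ran over all 54264 ways to choose 6 of 21 arrays, with adjustment over 4 pairs. It takes single arrays as exchangeable, although the 3 arrays of a time belong together. Its p therefore does not measure the spread between times and can be too small. The difference of pdgfra over pdgfrb was 1.59 in control as a group mean and 0.03 at 4 hpi, and then 1.03, 1.23, 1.25, 1.2 and 1.34 from 1 to 90 dpi. All 3 arrays at 4 hpi (-0.07, 0.22 and -0.05) lay below every other array. Injured hearts were lower by 0.52 (exact p = 0.0215, adjusted p = 0.043), and by 0.29 without the 4 hpi group (adjusted p = 0.0486, exact permutation test). The call was lost without any control or 4 hpi array or 90 dpi replicate 1 or 2, with an adjusted p up to 0.102.

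fgfr1a over fgfr2 was -2.02 in control, -1.67 at 4 hpi, -1.18 at 1 dpi, -1.65 at 3 dpi, -1.98 at 7 dpi, -2.20 at 14 dpi and -2.31 at 90 dpi. It was highest at 1 dpi and was higher in injured hearts by 0.43 (exact p = 0.0161, adjusted p = 0.043), a call also lost without any of the same 8 arrays (adjusted p up to 0.102). With adjustment over the pairs, this adjusted p was set by that of pdgfra over pdgfrb. The loss therefore need not come from fgfr1a over fgfr2 itself. fgf11a over fgf17 differed by -0.69 (exact p = 0.196, adjusted p = 0.262). This pair was -2.33 in control, -2.87 at 4 hpi and between -4.99 and -4.51 from 1 dpi on, 90 dpi included. pdgfaa over pdgfab differed by 0.03 (exact p = 0.841, adjusted p = 0.841), with both genes near the median signal of an array.

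**Figure D3:**
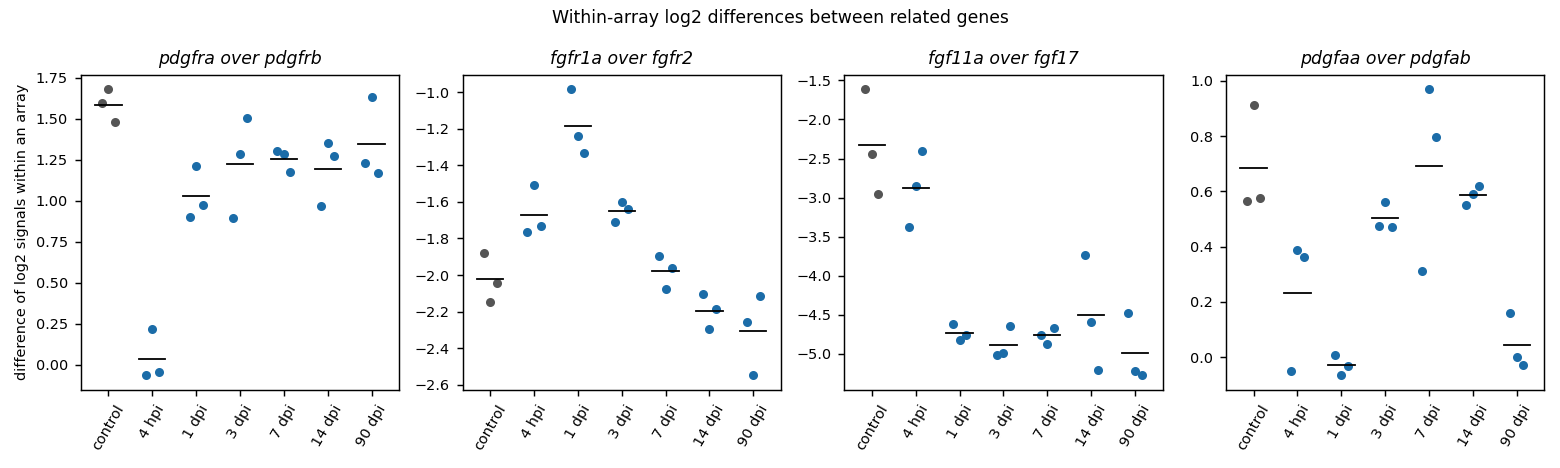
Difference of the log2 signals of 2 related genes within each array (y axis, log2 units) by group, with grey points for control, blue points for injured hearts and a black bar for the mean of 3 arrays. pdgfra over pdgfrb drops to about 0 at 4 hpi and fgfr1a over fgfr2 peaks at 1 dpi, and the y axes differ between panels and do not start at 0.

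Most other ligands of these families were dim on the array. Symbols that begin with fgf or pdgf named 53 genes, of which 20 passed the filter. Of 24 Fgf ligands on the array 4 were tested, and besides fgf17 these were fgf1b, fgf2 and fgf3. fgf1b, an Fgf1 duplicate, rose by 1.25 at 4 hpi (adjusted p = 0.000734, limma) and fell by 0.96 at 1 dpi (adjusted p = 0.0054). fgf2, a ligand stored in the matrix, rose at 3 dpi (0.61) and 90 dpi (0.59), and fgf3, a secreted ligand of early development, fell at 1 dpi (-1.14), 3 dpi (-1.16), 7 dpi (-0.64) and 14 dpi (-1.17).

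The other tested Fgf homologous factor, fgf14, fell at 1 dpi (-0.87), 3 dpi (-1.01, adjusted p = 4.41e-06, limma) and 7 dpi (-0.51). Sodium channel genes, whose products bind Fgf homologous factors in mammals, had 4 tested of 13 on the array. Of these 0 rose and 2, 4, 3, 3, 0 and 0 fell from 4 hpi to 90 dpi (limma, and at an unadjusted p under 0.05 again 0 rose and 2, 4, 3, 3, 2 and 1 fell). Of all tested features 21.3%, 22%, 20.7%, 14.5%, 9.39% and 11.2% rose and 17.5%, 16.5%, 14.9%, 8.02%, 4.57% and 7.68% fell. scn5lab, a cardiac sodium channel, fell by 0.61 at 1 dpi (adjusted p = 0.000943), and the subunit genes scn4ba and scn3b fell by 0.86 and 0.79 at 3 dpi. These 4 genes were not called at 14 or 90 dpi, when fgf11a was still called.

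fgfr1b, the other FGFR1 duplicate, had a higher signal at all 6 times, by 1.66 at 4 hpi (adjusted p = 3.27e-06, limma), 1.03, 1.27, 1.08, 0.95 and 0.85 at 90 dpi. Its control arrays (4.72, 4.54 and 4.53) lay below the median signal of an array, its highest array was 6.45, and it passed the filter only through injured hearts, so whether it was above background in control was not tested. Unlike fgfr1a it was already called at 4 hpi and still called at 90 dpi, but the difference between these duplicates was not tested. The receptor gene fgfrl1a, whose product lacks the kinase, was not called at any time. Among Pdgf genes, pdgfd, a ligand of Pdgfrb, rose at 4 hpi (0.61) and 1 dpi (0.65) and fell at 7 dpi (-0.75). pdgfba, the duplicate of pdgfbb, was not called at any time. pdgfrl, a receptor-like gene without a kinase, fell at 4 hpi (-1.08) and rose at 3 dpi (0.53). This gives Pdgf receptor genes 1 rise and 2 falls at 4 hpi and 2 rises at 3 dpi among 3 tested. Over all tested features 21.3% rose and 17.5% fell at 4 hpi, and 20.7% rose at 3 dpi.

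A list meant to hold feedback and target genes of Fgf signalling had 14 tested of 18 on the array. It includes pea15, egr1, dusp1 and the spred genes, and whether each gene is induced by Fgf was not tested. Their counts stand beside 21.3%, 22%, 20.7%, 14.5%, 9.39% and 11.2% of all tested features that rose from 4 hpi to 90 dpi. The shares that fell were 17.5%, 16.5%, 14.9%, 8.02%, 4.57% and 7.68%. Of the 14 genes 3 rose and 3 fell at 4 hpi. The falls were the Ets transcription factors etv5b (-1.90, adjusted p = 4.25e-05, limma), etv4 (-1.72, adjusted p = 2.49e-06) and etv5a (-0.53), and the rises were the phosphatases dusp4 (0.98) and dusp1 (0.92) and the inhibitor spred2b (0.55). At 1 dpi 1 rose (flrt3) and 4 fell, with spry4, an inhibitor of the pathway, at -1.46, dusp4 at -1.41 and etv5b at -1.16. At 3 dpi 1 rose and 3 fell, at 14 dpi only spry4 fell (-1.32, adjusted p = 0.0419), and at 7 and 90 dpi 0 rose and 0 fell (limma, 1 and 2 rises and 2 and 6 falls at an unadjusted p under 0.05). spry2, spred1 and dusp6 were not called at any time. The medians of this list were -0.09 at 4 hpi, -0.28 at 1 dpi and 0.14 at 3 dpi, beside 0.05, 0.05 and 0.02 for all features. Later they were -0.21 at 7 dpi, -0.05 at 14 dpi and -0.31 at 90 dpi, beside 0.02, 0.06 and 0.01.

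Adaptors and kinases downstream of these receptors had 24 tested genes. From 4 hpi to 90 dpi 3, 5, 3, 1, 1 and 0 rose and 6, 5, 4, 4, 1 and 0 fell (1 rise and 2 falls at 90 dpi at an unadjusted p under 0.05). Of all tested features 21.3%, 22%, 20.7%, 14.5%, 9.39% and 11.2% rose and 17.5%, 16.5%, 14.9%, 8.02%, 4.57% and 7.68% fell. braf, a MAP kinase kinase kinase, fell by 1.43 at 4 hpi (adjusted p = 6.75e-06, limma), rasa1b, which switches off Ras, fell by 1.04, and pik3ca, a catalytic subunit of phosphoinositide 3-kinase, rose by 1.12. grb2a, an adaptor that links receptors to Ras, fell by 0.70 at 4 hpi and rose by 1.1 at 3 dpi. Its mean log2 signal in control was 5.44, under the filter, and its arrays ran from 4.73 to 6.68. These are differences of dim signals, and the filter could favour the rise.

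**Figure D4:**
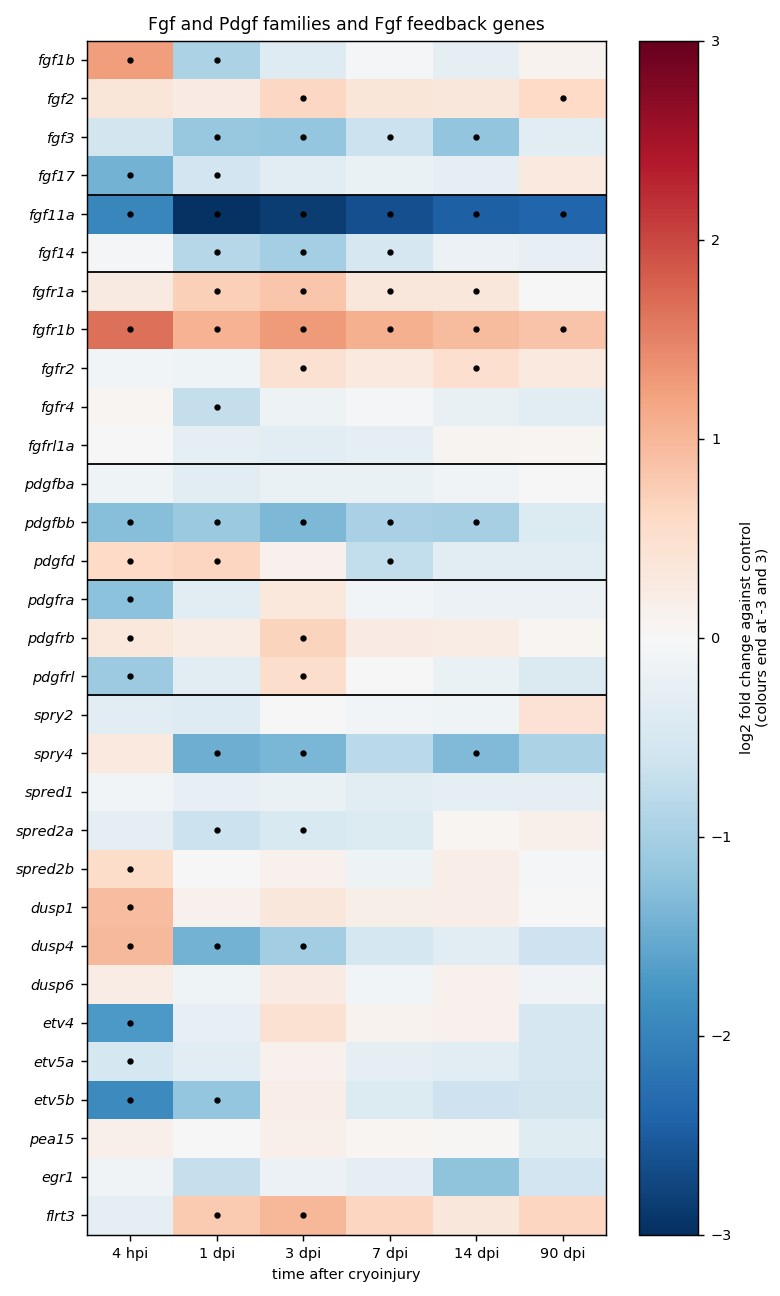
Log2 fold change against control (colour, limited to -3 and 3) of tested genes of the Fgf and Pdgf families and of the Fgf feedback and target list (rows) at 6 times after cryoinjury (columns), with a dot where the adjusted p was under 0.05. Lines separate ligands, homologous factors, receptors, Pdgf ligands, Pdgf receptors and the feedback and target list, and fgf11a and fgfr1b are the rows with a dot at all 6 times.

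Markers of the cells that typically carry Pdgf receptors moved over the same times. Their counts stand beside 21.3%, 22%, 20.7%, 14.5%, 9.39% and 11.2% of all tested features that rose from 4 hpi to 90 dpi. The shares that fell were 17.5%, 16.5%, 14.9%, 8.02%, 4.57% and 7.68%. The epicardial transcription factor genes tbx18 (-2.58, adjusted p = 4.51e-07, limma) and tcf21 (-1.79, adjusted p = 5.22e-06) fell at 4 hpi, when pdgfra fell, while aldh1a2, which makes retinoic acid, rose by 1.24 (adjusted p = 0.000107). tcf21 rose by 0.78 at 3 dpi. Of 6 epicardial genes 1 rose and 3 fell at 4 hpi, 3 rose and 3 fell at 1 dpi, and 4 rose and 1 fell at 3 dpi, with wt1b at 3.36 and aldh1a2 at 1.45. The log2 of their summed signal ran from 10.8 to 10.9 in control, 11.0 to 11.1 at 4 hpi and 12.1 to 12.2 at 3 dpi. A sum of unlogged signals weighs the brightest gene most, which in control was aldh1a2 (mean log2 signal 9.48). The higher sum at 4 hpi therefore need not hold for the other epicardial genes, of which 3 fell. None of the 6 lay below the median signal of an array in control, while 1 did at 4 hpi and 1 at 1 dpi.

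Of 12 fibroblast matrix genes 1 rose and 5 fell at 4 hpi, 6 rose and 1 fell at 1 dpi, and 11 rose and 0 fell at each of 3, 7 and 14 dpi, with 2 rises at 90 dpi (limma, 0 falls at an unadjusted p under 0.05 from 3 dpi on). At 3 dpi fn1a rose by 5.08, col12a1a by 3.14 and postnb by 2.56, and lum was called higher from a control mean of 3.88, below the median signal of an array. The log2 of their summed signal ran from 12.7 to 13.0 in control, 12.3 to 12.6 at 4 hpi and 14.2 to 14.4 at 3 dpi. These genes stayed high at 7 and 14 dpi, when pdgfra and pdgfrb were not called against control.

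Of 11 tested mural cell genes 3 rose and 3 fell at 4 hpi, 2 rose and 3 fell at 1 dpi and 3 rose and 2 fell at 3 dpi. rgs5b, a pericyte gene, rose by 2.36 at 4 hpi, notch3 fell by 1.26 at 4 hpi, and the potassium channel gene kcnj8 fell from 1 to 90 dpi (-1.23 at 7 dpi). The log2 of their summed signal stayed between 12.4 and 13.0 in all groups. The part of each of these cell types in the changes of pdgfra and pdgfrb was not tested.

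**Figure D5:**
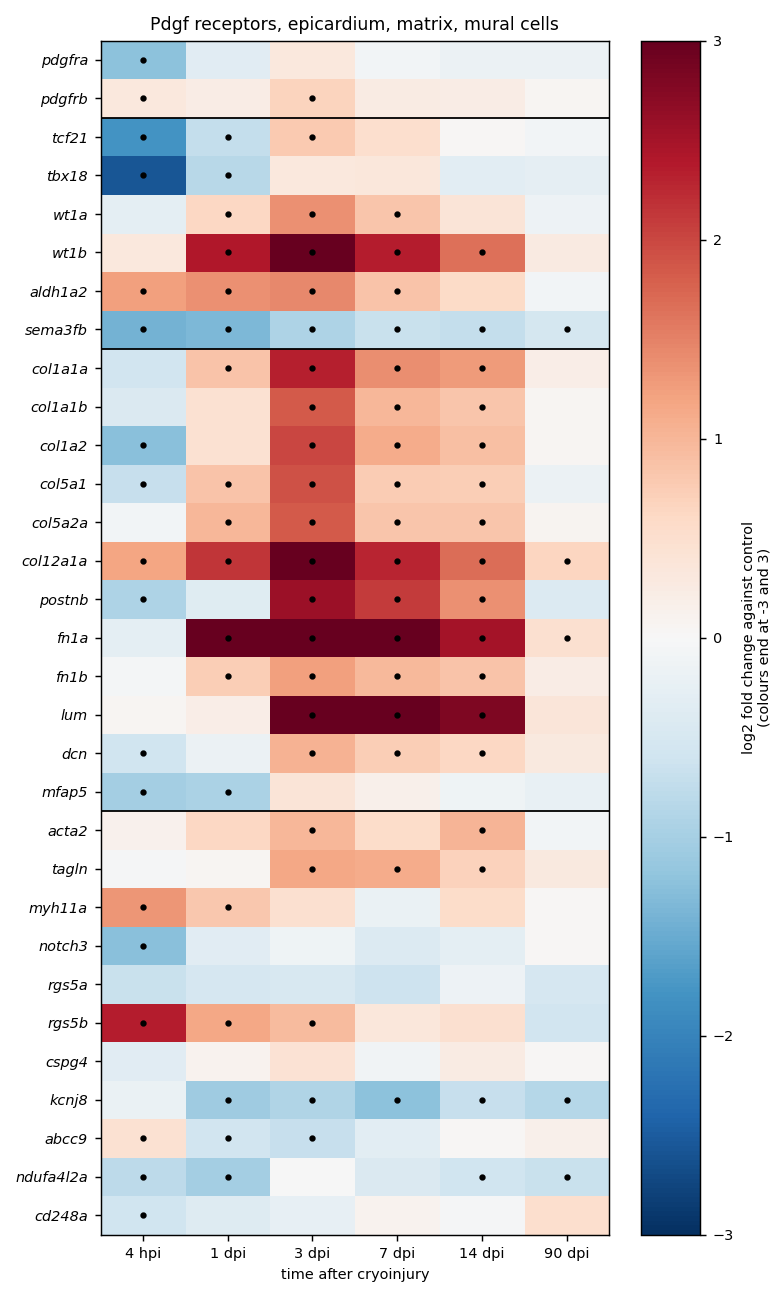
Log2 fold change against control (colour, limited to -3 and 3) of pdgfra and pdgfrb and of tested genes typical of epicardium, fibroblast matrix and mural cells (rows, separated by lines) at 6 times after cryoinjury (columns), with a dot where the adjusted p was under 0.05. The fall of pdgfra at 4 hpi stands beside falls of 3 of 6 epicardial genes and a rise of aldh1a2, and the 3 dpi rise of pdgfrb beside rises of 11 of 12 matrix genes.

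Other cell types were followed in the same way, and their counts stand beside the same shares of all tested features. Heart muscle genes fell in part, with 4, 7, 7, 1, 0 and 0 of 13 tested lower and 0 higher from 4 hpi to 90 dpi, with at most 2 rises at a time at an unadjusted p under 0.05 in limma. The log2 of their summed signal was 15.9 to 16.0 in control and 15.7 on each array at 1 dpi. Genes of the endothelium, a usual source of B-chain Pdgf, had 1 rise and 3 falls among 9 at 4 hpi. They had 3, 4, 2, 2 and 1 falls with 0 rises from 1 to 90 dpi. At an unadjusted p under 0.05 in limma these genes again had 0 rises at those times, with 5, 5, 3, 2 and 1 falls. The log2 of their summed signal was 13.2 to 13.3 in control and 13.3 to 13.5 at 4 hpi, when pdgfbb had already fallen. It was 12.9 to 13.2 at 1 dpi, 13.0 to 13.1 at 3 dpi, 13.1 to 13.2 at 7 dpi, 13.1 to 13.3 at 14 dpi and 13.2 to 13.3 at 90 dpi. This sum too weighs the brightest gene most, which in control was cdh5 (mean log2 signal 11.2). cdh5 was the single rise at 4 hpi, while tie1, plvapa and plvapb fell. The higher sum at 4 hpi therefore need not hold for the other endothelial genes. Genes of thrombocytes, the fish counterpart of platelets, rose (5, 4, 4, 2, 3 and 1 of 7 from 4 hpi to 90 dpi) and 0 fell. Leukocyte genes likewise rose (9, 11, 12, 8, 7 and 6 of 12) and 0 fell, while pdgfbb was called lower from 4 hpi to 14 dpi only. At an unadjusted p under 0.05 in limma a single thrombocyte gene fell, at 14 dpi. In control 6 of 13 leukocyte genes on the array lay below the median signal of an array. Leukocyte genes such as ncf1 (control mean 4.78), mmp13a (4.86) and ptprc (5.62), and the thrombocyte gene itgb3b (5.73), passed the filter only through injured hearts. Their rises were thus favoured by the filter. The log2 of the summed signal of thrombocyte genes was 10.1 to 10.7 in control and 11.5 to 12.2 at 4 hpi. That of leukocyte genes was 9.77 to 9.87 in control and 12.8 to 13.3 at 1 dpi. The part of these cell types in the changes of the members was not tested.

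The genes whose pattern over the 21 arrays was most like that of a member were sought among 11687 tested genes with a single symbol, by Pearson's r and as a description only, since all share the same arrays. fgf11a was closest to grin2da (r = 0.934), LOC563710 (0.926) and ppp1r1c (0.923). fgf17 was closest to tnrc6c1 (0.943), and dpf3 and brpf3a followed at 0.938. pdgfbb was closest to vipr1b (0.921), thap1 (0.919) and mark2a (0.918).

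Of the receptors, fgfr1a was closest to the membrane repair gene myof (r = 0.969), krt18b (0.943) and anxa1a (0.941). pdgfra was closest to sh3gl1b (0.964), cyp2ad3 (0.963) and zcchc24 (0.945). pdgfrb (si:dkey-7j14.5, 0.850), fgfr2 (itih5, 0.825) and fgfr4 (si:dkey-178e17.3, 0.780) had no partner as close. The dim pdgfaa came closest to slmapb (0.825) and snai2 (0.801), and pdgfab to tmem131 (0.835). No member appeared among the 3 closest genes of another member.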

How the data were processed

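The 21 arrays were profiled from pools of zebrafish heart ventricles, 3 per group. Each deposited value is a log2 signal of a feature on an array, for which the authors ran robust multi-array averaging (RMA) with a GC-content correction in the Partek Genomics software. These were used as deposited, and 0 value columns were left unmatched to a sample. Features were named from the array's annotation: 20806 carry a single symbol, 855 several and 53551 none. The tests were limma 3.58.1 in R 4.3.3, with a mean per group, 14 residual degrees of freedom, the filter of a log2 signal above 6 on at least 1 array, as in the study's methods, and Benjamini-Hochberg adjustment over 35783 features. Python 3.11.15 with matplotlib 3.10.9 made the figures. The fit was tested on simulated data. The number of arrays limits the precision: 3 arrays against 3 cannot give an exact p below 0.1. The limma p-values rest instead on the spread of a gene pooled over the 7 groups, as if it were alike in each. To its 14 residual degrees of freedom the other features add 3.28. All 10 members are named, with up to 4 genes of each of 15 pathway and cell type lists by their largest called change, and the 3 closest genes of a member. Other genes named (the further called members of the Fgf, Pdgf and Fgf feedback and target lists) were chosen after their values were seen. Members and lists were chosen with earlier results of these data known. Alternatives covered the filter, normalization, centring, variance model, arrays fitted, replicate numbers, thresholds and left-out arrays. The scans were not used here. No array build was given in the sources used here, so no coordinates or sequences are printed.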

Additional observations from a re-analysis of the deposited data

Results flagged for a closer look

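Several members changed between neighbouring times by a test of the difference itself (limma, adjusted over all tested features), which means that their changes from control differed between those times. From 4 hpi to 1 dpi fgf11a changed by -1.02 ± 0.25 (adjusted p = 0.00438) and fgfr4 by -0.77 ± 0.23 (adjusted p = 0.0144), while fgf17 rose by 0.84 ± 0.19 (adjusted p = 0.00232), fgfr1a by 0.45 ± 0.10 (adjusted p = 0.00264) and pdgfra by 0.90 ± 0.16 (adjusted p = 0.000213). From 1 to 3 dpi fgfr2 rose by 0.59 ± 0.14 (adjusted p = 0.0177), pdgfra by 0.65 ± 0.16 (adjusted p = 0.0207) and pdgfrb by 0.45 ± 0.12 (adjusted p = 0.0491). From 3 to 7 dpi fgfr1a changed by -0.50 ± 0.10 (adjusted p = 0.00753) and pdgfrb by -0.42 ± 0.12 (adjusted p = 0.0477). The filter kept fgfr1a only through 1 array at 3 dpi, where it was highest, so its fall out of 3 dpi was favoured by the filter. fgf11a was kept only through control, and all its arrays at 4 hpi and 1 dpi lay below the filter. Its step between these times is thus a difference of dim signals. From 14 to 90 dpi pdgfbb rose by 0.60 ± 0.14 (adjusted p = 0.0142). With only the 6 arrays compared, 0 members were called from 1 to 3, from 3 to 7 and from 14 to 90 dpi. Without single arrays the calls in these steps ranged from 0 to 3, 1 to 2 and 0 to 2.

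pdgfab, which the signal filter left out, was higher than control in a fit of all features at 1 dpi (0.48 ± 0.11, adjusted p = 0.00308, limma), 3 dpi (0.39 ± 0.11, adjusted p = 0.0149) and 90 dpi (0.39 ± 0.11, adjusted p = 0.0297). Its highest log2 signal on any array was 5.14.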

How the results depend on the processing

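The 6 falls of fgf11a and the falls of pdgfbb from 4 hpi to 14 dpi held in every alternative and without any single array. So did the 4 hpi falls of fgf17 and pdgfra. The 1 and 3 dpi rises of fgfr1a held too, except that a stricter filter of 7 leaves out fgfr1a. With quantile normalization and without single arrays, the 8 tested members were kept whatever their signal. fgfr1a thus stayed in the fit without 3 dpi replicate 2, its only array above the filter of 6. These fits also do not test the selection of fgf11a, which passed the filter only through control, where it was high. No change of a member reversed its direction where it was called. Over all results of single members, 2796 settings left the result as it was, 143 lost a call and 17 gained one. The 2796 include results that were not called and stayed so. Only called results can lose a call, so the 143 are not a share of all settings. At an FDR of 0.001 the members called were 3 at 1 dpi instead of 5, 2 at 14 dpi instead of 4, 1 from 4 hpi to 1 dpi instead of 5, and 0 from 1 to 3, 3 to 7 and 14 to 90 dpi instead of 3, 2 and 1. With a 1.6-fold minimum they were 3 at 3 dpi instead of 5, 2 at 14 dpi, 3 for injured against healthier hearts instead of 5, and 0 for those same 3 steps. With only the 6 arrays compared they were 2 at 14 dpi and 0 for those steps. At 90 dpi 2 were called instead of 1 with a filter of 7, with centred arrays and with trend and robust variances, pdgfbb being added. From 3 to 7 dpi 1 remained without a filter, with a filter of 7, with quantile normalization, with centred arrays and with the replicate block. The study speaks of 3 independent experiments, but no label ties a replicate number to one. Deviations of same-numbered arrays from their group means correlated weakly with those of control (r from -0.137 to 0.201, above 0.1 in 3 of 18 pairs). Over all groups the mean r was 0.015 for the same number and -0.007 for different numbers. Of 126 choices of a best partner, 52 fell on the same number. Whether a number marks a shared experiment was not settled by these values. The replicate block gave 4 calls at 4 hpi, 5 at 1 dpi, 5 at 3 dpi, 3 at 7 dpi, 4 at 14 dpi and 1 at 90 dpi, 2 from 1 to 3 dpi, 6 for injured against healthier hearts and 8 for any difference.

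Without single arrays the calls ranged from 4 to 5 at 4 hpi, 3 to 5 at 1 dpi, 4 to 5 at 3 dpi, 2 to 3 at 7 dpi, 2 to 4 at 14 dpi and 1 to 2 at 90 dpi. They ranged from 4 to 5 from 4 hpi to 1 dpi, 0 to 3 from 1 to 3 dpi, 1 to 2 from 3 to 7 dpi, 0 to 0 from 7 to 14 dpi, 0 to 2 from 14 to 90 dpi, 5 to 6 for injured against healthier hearts and 7 to 8 for any difference. The log2 ratio of pdgfra over pdgfrb ranged from -0.58 to -0.44, pdgfaa over pdgfab from -0.05 to 0.14, fgfr1a over fgfr2 from 0.35 to 0.49 and fgf11a over fgf17 from -1.02 to -0.28. pdgfra over pdgfrb was -0.47 with quantile normalization (exact permutation test, adjusted p = 0.0656) and -0.47 with the mean of its features (adjusted p = 0.0836). The latter also moved the adjusted p of fgfr1a over fgfr2, still 0.43, to 0.0646, since adjustment is over the 4 pairs. Without the 4 hpi group fgf11a over fgf17 was -1.06 (adjusted p = 0.0486) and pdgfra over pdgfrb -0.29 (adjusted p = 0.0486). Otherwise the cause of these differences was not tested.

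The deposited arrays have close medians over all features, not over tested ones. In the comparisons with control and of injured against healthier hearts, the share of rises among all calls moved by over 10 points with the scaling, as given beside the counts. It moved less in some steps between neighbouring times. From 4 hpi to 1 dpi it was 56.3% as deposited, 55.8% after quantile normalization and 49.1% with centred arrays. Why the share moved was not tested. Centring moved the median of all features from 0.05 to -0.13 at 1 dpi, and small changes such as the 7 and 14 dpi rises of fgfr1a depend on it. Signals near or below 5, as of pdgfaa, pdgfab, fgf11a after injury, fgfr1a in control and at 90 dpi and fgfr1b in control, limit what can be resolved.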
